A study of Mus musculus with 7 samples.

Results

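GABA synapse genes were taken as the rows of the authors' deposited table whose symbol was 1 of 27 listed members. Of these, 26 were found among the 17732 listed genes, each on 1 row, and the remaining member, Gabra6, was not analysed here. They comprised 13 subunits of the ionotropic GABAA receptor, 2 subunits of the metabotropic GABAB receptor, 2 enzymes of GABA synthesis, 4 genes of GABA transport and breakdown, 3 of the inhibitory postsynaptic scaffold and 2 chloride transporters. Other subunits and transporters of GABA are not described here.

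Male mice of the 129SvEv strain, all wild type (WT), gave RNA from the medial prefrontal cortex, taken after a remote memory had been retrieved. The CFC group had 3 libraries and the SC group had 4, and the labels give these names without spelling them out. Ages, the number of animals behind a library and pooling are not given in the sources used here. Each gene has 1 mean normalized count over the libraries, 1 log2 fold change between CFC and SC, and the standard error (SE) of that fold change. Values of single libraries were not analysed here, so no value per sample can be shown, and whether 1 library carries a difference was not tested. The numerator of the fold change is not stated, so a difference is called positive or negative as deposited and neither group is called higher. In bulk tissue, fewer cells of a type and less RNA per cell cannot be told apart.

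GABA is the main inhibitory transmitter of the cortex. Interneurons make it from glutamate with the decarboxylases Gad1 and Gad2, and the carrier Slc32a1 loads it into vesicles. Released GABA opens GABAA receptors, pentameric chloride channels held at the synapse by gephyrin and its partners, and activates the slower GABAB receptors, which act through G proteins. The effect of an open chloride channel depends on the chloride level inside the cell, which Slc12a2 raises by uptake and Slc12a5 lowers by extrusion. Membrane transporters and the transaminase Abat then clear and degrade the transmitter.

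No GABA synapse gene passed the test for a difference between CFC and SC after adjustment over all genes. Of the 26 members, 21 had an adjusted p-value in the authors' deposited table and none was under 0.05 by the authors' DESeq2 Wald test, against 67 of 13060 genes (0.513%) overall. The lowest adjusted p of the members was that of Gabrd, at 0.0901, and the only one under 0.1, a level reached by 0.773% of all genes. Without adjustment, 4 members (15.4% of 26) had a p-value under 0.05, against 6.82% of the 17729 genes with a p-value. The positive ones were Gabrb1 and Slc12a2, where 4.04% of all genes were positive at this level, and the negative ones Gabrd and Gabbr2, where 2.78% were negative. Abundant genes reached this level more often, 449 of the 4242 genes averaging 1000 counts or more (10.6%), and 3 of the 18 members that abundant did so. In all, 12 members were positive and 14 negative, and the median of the 26 log2 fold changes was -0.01, beside 0.00098 for the 17729 genes. The plot of the members' fold changes shows the intervals of 4 members clear of 0 and all others spanning it.

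**Figure D1:**
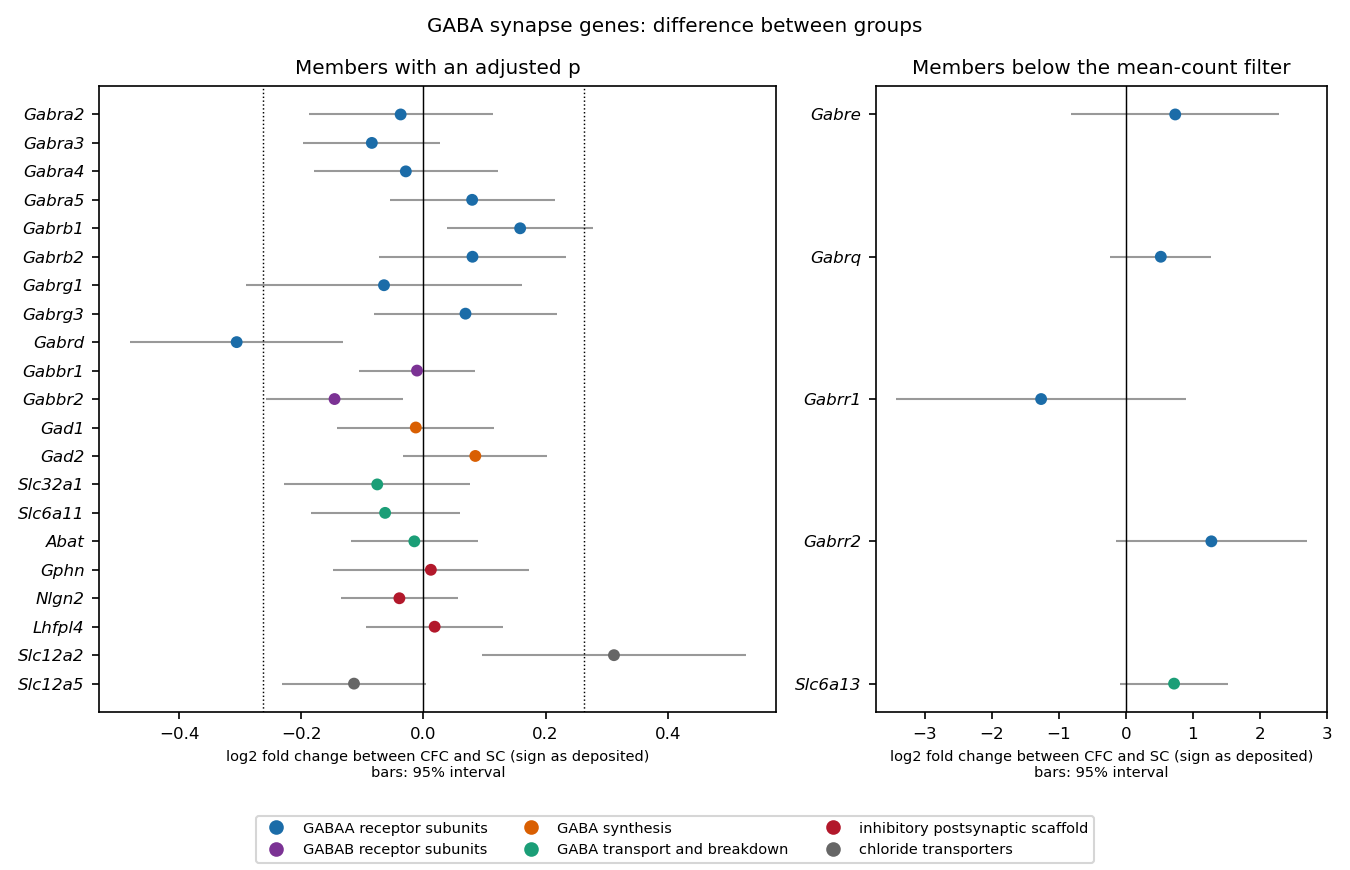
Log2 fold change between CFC and SC (x axis, sign as deposited) of each GABA synapse gene (y axis), with points coloured by role and bars giving the 95% interval. The 21 members with an adjusted p are on the left, where dotted lines mark a 1.2-fold difference, and the 5 members below the mean-count filter are on the right, on a wider axis. Gabrd, Gabbr2, Gabrb1 and Slc12a2 are the members whose interval does not include 0.

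Most of these genes were measured precisely enough to bound a difference. A 95% interval was computed for each member from the deposited log2 value and SE, and in 17 of the 26 it lay inside a 1.2-fold difference in either direction, that is within 0.26 on the log2 scale. All 17 were among the 21 members with an adjusted p-value, and among the 13060 genes that had one the share was 47.1%. Among genes averaging 1000 counts or more it was 85.2%, and 16 of the 18 members that abundant met it, all but Gabrb1 and Slc12a2. The members' SEs were close to those of similarly abundant genes, with a median ratio of 1.06 and a range from 0.844 for Nlgn2 to 1.49 for Slc12a2. The fold difference at which a member would have reached the adjusted threshold, 3.68 of its own SE, ran from 1.13-fold for Gabbr1 to 1.34-fold for Gabrg1, with a median of 1.18-fold over the 21 members with an adjusted p-value. The plot of fold change against abundance places the 21 members among all genes, with Gabrd the lowest and Slc12a2 the highest of them.

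**Figure D2:**
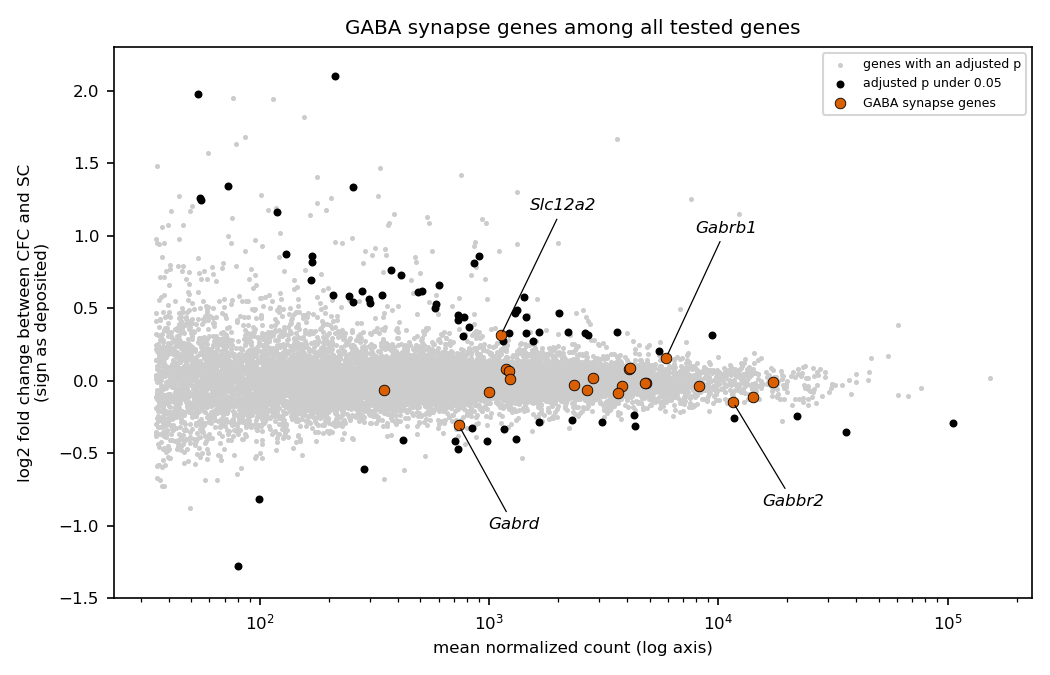
Log2 fold change (y axis, sign as deposited) against mean normalized count (x axis, log scale) for the 13060 genes with an adjusted p, in grey, with the 67 genes under 0.05 in black and the 21 GABA synapse genes of that set in orange. The y axis leaves out 4 genes. No orange point is among the black ones, and the 4 members with an unadjusted p-value under 0.05 are named.

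Levels of different genes were compared as the mean normalized count per kb of annotated exon, a quantity over all libraries for which the authors' deposited table gives no error. By this measure 20 of the 26 members were above the median of all listed genes, 63.7 per kb. The GABAB subunits Gabbr1 and Gabbr2, the chloride extruder Slc12a5 and the adhesion protein Nlgn2 were the highest, at 2233, 1727, 1903 and 1428 counts per kb, and each ranked above 98% of listed genes. At the other end were the rho subunits Gabrr1 and Gabrr2, known from the retina, at 1.11 and 3.42 per kb, and the subunits Gabre and Gabrq, known mainly from hypothalamic and brainstem nuclei, at 1.23 and 4.96 per kb. The plot of levels shows a step between these genes with Slc6a13, all at 10.1 per kb or less, and the other members, the lowest of which was Gabrg1 at 44.1 per kb. The 5 genes below the step are also those with no adjusted p-value, since their mean counts lay under the lowest one tested, 34.9.

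**Figure D3:**
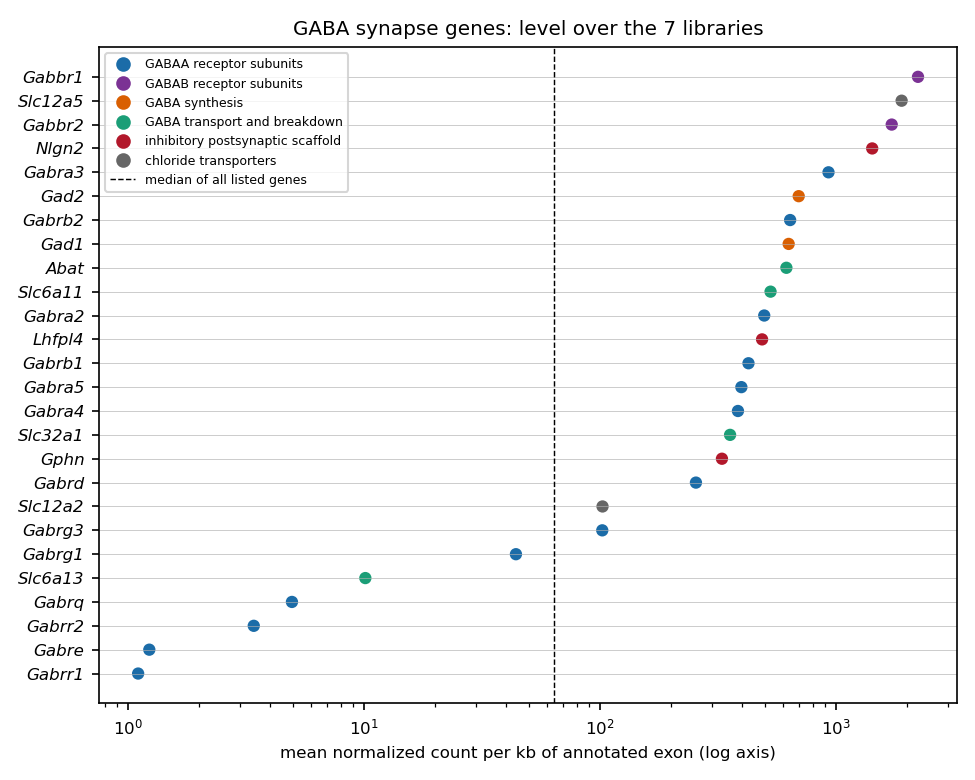
Mean normalized count per kb of annotated exon (x axis, log scale) of the 26 GABA synapse genes (y axis, ordered by level and coloured by role). The dashed line is the median of all listed genes, 63.7 per kb, and 20 members lie to its right.

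Among the alpha subunits, which with the beta subunits form the GABA binding site, Gabra3 had the highest level at 932 counts per kb, followed by Gabra2 at 498, Gabra5 at 398 and Gabra4 at 385. The last 2 are too close to be ordered without an error. All 4 had intervals inside a 1.2-fold difference. The authors' deposited table gave log2 fold changes of -0.08 for Gabra3 (SE 0.06), -0.04 for Gabra2 (SE 0.08) and -0.03 for Gabra4 (SE 0.08). Gabra5, whose subunit sits largely outside the synapse, was positive at 0.08 (SE 0.07) in the authors' deposited table. Adjusted p-values of these 4 genes ran from 0.859 to 0.999 there.

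Both beta subunits were positive. Gabrb1 (ENSMUSG00000029212) had a mean count of 5907 and a log2 fold change of 0.16 (SE 0.06) in the authors' deposited table, or 1.12-fold. Its adjusted p-value in the authors' deposited table was 0.359, and its 95% interval, from 0.04 to 0.28, did not include 0. Gabrb2, the more abundant of the pair per kb (641 against 427), was at 0.08 (SE 0.08, adjusted p = 0.971) in the authors' deposited table. Intervals of the 2 genes overlap, and a difference between genes of the same libraries was not tested. Of the gamma subunits, which carry the benzodiazepine site and bind receptors to the synapse, Gabrg1 was negative at -0.06 (SE 0.11) and Gabrg3 positive at 0.07 (SE 0.08) in the authors' deposited table, with adjusted p-values of 0.999 and 0.984.

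The largest difference relative to its error was that of Gabrd (ENSMUSG00000029054), the delta subunit of extrasynaptic receptors that carry tonic inhibition. It lies on the minus strand at chr4:155384980-155398112 (GRCm38) and had a mean count of 735. The authors' deposited table gave it a log2 fold change of -0.31 (SE 0.09, adjusted p = 0.0901), a 1.24-fold difference with a 95% interval from -0.48 to -0.13. A 1.26-fold difference would have been needed to pass at this SE. Gabra4, the usual alpha partner of the delta subunit in forebrain, was close to 0, with an interval from -0.18 to 0.12. The 2 intervals overlap between -0.18 and -0.13, and the difference between the genes was not tested. The SE of Gabrd was 1.07 times that of similarly abundant genes.

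For the 4 rare GABAA subunits the depth allowed no statement on a difference. Gabre was at 0.74 (SE 0.79), Gabrq at 0.52 (SE 0.38), Gabrr1 at -1.27 (SE 1.11) and Gabrr2 at 1.28 (SE 0.73) on the log2 scale in the authors' deposited table. Their mean counts there were 5.84, 26.5, 2.53 and 7.19, and each interval included 0. A difference of 2.67-fold for Gabrq and of 16.8-fold for Gabrr1 would have been needed to reach the Wald statistic of the threshold.

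GABAA subunit genes are arranged in clusters, and neighbours did not share a sign throughout. On chromosome 5, Gabrg1, Gabra2 and Gabra4 follow each other on the minus strand and were all slightly negative, at -0.06, -0.04 and -0.03 in the authors' deposited table, while Gabrb1, next to Gabra4 on the plus strand, was at 0.16. Gabra4 (chr5:71569749-71658308) and Gabrb1 (chr5:71658113-72149037) face away from each other, and their gene models overlap by 196 bases on opposite strands in GENCODE M21, exons included. Whether strand was used in counting is not stated, so reads from this overlap could have been given to either gene or to none. Gabrg3 and Gabra5 have 20483 bases between them on chromosome 7 and like values, 0.07 and 0.08, in the authors' deposited table. The pair Gabrr2 and Gabrr1 on chromosome 4 had opposite signs at mean counts under 10, and Gabra3 on the X chromosome lies between the rare Gabre and Gabrq. Antisense exons also overlap Gabra5 (Gm9962), Slc32a1 (Gm14205) and Gphn (Gm48226), so the same limit applies to those 3 genes.

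Sequence upstream of 4 members is shown because Gabrb1 and Gabbr2 were among the 4 members under an unadjusted p-value of 0.05, Gabra4 faces Gabrb1, and Slc12a5 is the counterpart of Slc12a2. No sequence is shown for Gabrd or Slc12a2. Each stretch is the RefSeq promoter window on GRCm38.p6, from 250 bases before to 50 after the start, cut back to the part with no annotated coding or untranslated exon, and is written 5′ to 3′ on the strand of its gene. Capitals mark a match on either strand to GGGCGG (the GC box bound by SP1), CCAAT or GCGCATGC (8 letters of the NRF1 site). The first is the start of Gabrb1 at chr5:71699682-71699931 (plus strand), inside its own longer gene model, and the second is that of Gabra4 at chr5:71658364-71658558 (minus strand), which lies in the Gabrb1 gene model. The third is that of Gabbr2 at chr4:46991874-46991964 (minus strand), and the last that of Slc12a5 at chr2:164960596-164960801 (plus strand).
Gabrb1: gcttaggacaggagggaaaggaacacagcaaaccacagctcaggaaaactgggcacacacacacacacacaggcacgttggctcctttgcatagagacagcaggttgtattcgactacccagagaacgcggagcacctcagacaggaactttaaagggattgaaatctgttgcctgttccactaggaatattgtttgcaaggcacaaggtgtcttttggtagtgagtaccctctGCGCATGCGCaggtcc
Gabra4: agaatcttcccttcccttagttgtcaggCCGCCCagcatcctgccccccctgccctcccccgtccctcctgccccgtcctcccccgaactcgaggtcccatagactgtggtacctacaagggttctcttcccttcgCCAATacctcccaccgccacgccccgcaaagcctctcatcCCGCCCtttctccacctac
Gabbr2: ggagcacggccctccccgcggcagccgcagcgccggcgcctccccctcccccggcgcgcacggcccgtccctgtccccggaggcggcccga
Slc12a5: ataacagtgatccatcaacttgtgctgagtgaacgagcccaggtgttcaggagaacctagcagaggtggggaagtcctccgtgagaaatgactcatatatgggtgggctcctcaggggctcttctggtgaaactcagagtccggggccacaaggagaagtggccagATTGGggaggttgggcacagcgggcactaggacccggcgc

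The Gabrb1 stretch held GCGCATGC, which 2.71% of all 32851 windows held on either strand and 1 of the 30 member windows. The 2 matches marked there overlap, 1 on each strand, and this motif was added to the search after the sequence had been seen. The Gabra4 stretch held 2 GC boxes and 1 CCAAT, that of Slc12a5 held 1 CCAAT, and that of Gabbr2, with 85.7% G and C, held none of the 3. In the full windows of Slc12a5 and Gabbr2, GGGCGG occurred in the part not shown. Windows were found for 23 of the 26 members. Of their 30 full windows, 17 held GGGCGG against 35.7% of all windows, 13 held CCAAT against 37.4%, and 4 held TATAAA against 13.6%. None held TGACGTCA, the cyclic AMP response element, or GCGTGGGCG, the Egr site, which 1.79% and 0.612% of all windows held. The median G and C content was 60.5% in the member windows and 52.7% in all windows. These matches describe letters only.

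The subunits of the GABAB receptor work as an obligate pair, in which Gabbr1 binds GABA and Gabbr2 couples to the G protein. Gabbr1 was at -0.01 (SE 0.05, adjusted p = 0.999) in the authors' deposited table, where its mean count was 17333. Gabbr2 (ENSMUSG00000039809, chr4:46662305-46991873) was at -0.15 (SE 0.06, adjusted p = 0.371) in the authors' deposited table, where its mean count was 11548. This is a 1.11-fold difference. Its interval, from -0.26 to -0.03, did not include 0, yet stayed inside a 1.2-fold difference, and it overlapped the interval of Gabbr1, from -0.10 to 0.08.

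Genes of GABA synthesis and vesicle loading were bounded within a 1.2-fold difference. Gad1 was at -0.01 (SE 0.07, adjusted p = 0.999) and Gad2 at 0.09 (SE 0.06, adjusted p = 0.876) in the authors' deposited table. The vesicular carrier Slc32a1 was at -0.08 (SE 0.08, adjusted p = 0.979) in the authors' deposited table. Both signs occurred and all 3 intervals included 0. Levels of Gad1 and Gad2 per kb were 632 and 697, an order that turns when length is taken from the longest transcript, where Gad2 was 0.532 times Gad1. Since these 3 genes mark inhibitory neurons, the interneuron markers are set beside them: 13 of 19 were positive and 6 negative, none of the 18 with an adjusted p-value was under 0.05, and their median log2 fold change was 0.05. Without adjustment, 2 of the 19 (10.5%, beside 6.82% of all genes) were under 0.05, Prox1 and Dlx2, both positive, at 0.46 (SE 0.14) and 0.45 (SE 0.21) in the authors' deposited table. The marker with the highest mean count, Erbb4, was at 0.13 (SE 0.07) in the authors' deposited table. Of the main subclass markers, Lamp5 was at -0.32 (SE 0.19), Pvalb at -0.23 (SE 0.30), Sst at 0.03 (SE 0.09) and Vip at 0.02 (SE 0.09) in the authors' deposited table. Lamp5 is also counted below among the upper-layer markers, and Tac1, another of the 19, among the striatal ones.

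Striatal projection neurons also use Gad1 and Gad2, and all 12 markers of that type were positive, with a median of 0.64. Drd1, the D1 dopamine receptor, was the 1 that passed, beside 0.513% of all genes, at 0.76 (SE 0.13, adjusted p = 3.66e-05) in the authors' deposited table. Adcy5, with the highest mean count, was at 0.17 (SE 0.08) in the authors' deposited table. The median SE of the 12 markers was 3.17 times that of similarly abundant genes, with a range from 1.22 to 4.09. Drd1 was near the low end of this range, at 1.25, and which cells its RNA came from was not tested. The ratio was 1.01 for Gad2 and 1.12 for Gad1. The part of striatal projection neurons in the values of Gad1, Gad2 and Slc32a1 was not tested.

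Genes of GABA uptake and breakdown had intervals that included 0. The astrocytic transporter Slc6a11 was at -0.06 (SE 0.06, adjusted p = 0.974) in the authors' deposited table. Abat, the mitochondrial GABA transaminase, was at -0.01 (SE 0.05, adjusted p = 0.999) in the authors' deposited table, where its mean count was 4788. Both intervals were within a 1.2-fold difference. The astrocyte markers beside them had 7 of 10 negative, a median of -0.06 and none under an adjusted 0.05, and Slc1a2, with their highest mean count, was at -0.05 (SE 0.07) in the authors' deposited table. Slc6a13, a transporter found mainly in the meninges, was positive at 0.72 (SE 0.41) in the authors' deposited table, where its mean count was 29.5, and its interval ran from -0.09 to 1.53. Of 9 markers of leptomeningeal and vascular fibroblasts, 7 were positive and 2 negative, with a median of 0.23, and summed mean counts of 302. Only 4 of the 9 had an adjusted p-value, none of them under 0.05. Col1a2, with the highest mean count, was at 0.23 (SE 0.19) in the authors' deposited table. Their part in the value of Slc6a13 was not tested.

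The 3 scaffold genes stayed within 0.04 of 0 on the log2 scale. Gephyrin (Gphn), the lattice protein under inhibitory receptors, was at 0.01 (SE 0.08) in the authors' deposited table. The adhesion protein Nlgn2 was at -0.04 (SE 0.05), and Lhfpl4, which links GABAA receptors to Nlgn2, at 0.02 (SE 0.06) in the authors' deposited table. Adjusted p-values of the 3 genes were 0.999, 0.991 and 0.999 there, and all 3 intervals were inside a 1.2-fold difference.

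The chloride transporters had opposite signs. Slc12a2 (ENSMUSG00000024597), the sodium-potassium-chloride importer, was positive at 0.31 (SE 0.11, adjusted p = 0.252) in the authors' deposited table, where its mean count was 1122. This is a 1.24-fold difference. Slc12a5 (ENSMUSG00000017740), the potassium-chloride extruder of mature neurons, was negative at -0.11 (SE 0.06, adjusted p = 0.688) in the authors' deposited table, where its mean count was 14169. Their 95% intervals, from 0.10 to 0.53 and from -0.23 to 0.0038, did not overlap, and only that of Slc12a2 excluded 0. Neither gene passed the adjusted threshold, and the difference between the 2 genes was not tested, since both were read in the same libraries. Per kb, the level of Slc12a5 was 18.5 times that of Slc12a2. The SE of Slc12a2 was 1.49 times that of similarly abundant genes, the highest ratio of all members, and that of Slc12a5 was 1.07 times.

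Slc12a2 is also made by glia, so glial markers are given beside it. All 10 oligodendrocyte markers were positive, with a median of 1.28. All 10 were under an unadjusted p-value of 0.05, beside 6.82% of all genes, but none was under an adjusted 0.05. Their SEs were large for their abundance, with a median ratio of 6.66, and Mbp, with the highest mean count, was at 1.15 (SE 0.51) in the authors' deposited table. Of 6 markers of oligodendrocyte precursors, 4 were positive and 2 negative, with a median of 0.05 and none under an unadjusted p-value of 0.05, and Pdgfra, with the highest mean count, was at -0.04 (SE 0.09) in the authors' deposited table. Olig1, the highest per kb, was at 0.20 (SE 0.12) in the authors' deposited table. The astrocyte markers, as given above, were mostly negative (7 of 10), with a median of -0.06. Of the 3 positive ones Gfap was the highest, at 0.56 (SE 0.43) in the authors' deposited table. Its SE was 5.63 times that of similarly abundant genes. The choroid plexus, another tissue known for Slc12a2, had 4 of 5 markers listed, all positive, with a median of 0.93 and summed mean counts of 160. Of these Kl, with the highest mean count, was at 0.59 (SE 0.22, adjusted p = 0.322) in the authors' deposited table and was the 1 gene with an adjusted p-value. Ttr, with a mean count of 67.0, was at 1.86 (SE 1.11) in the authors' deposited table, which gives it no p-value. Its SE was 4.90 times that of similarly abundant genes. Whether these cells contribute to the value of Slc12a2 was not tested.

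Markers of deep and upper cortical layers had opposite signs, and they stand beside Gabrd, Gabbr2 and Gabrb1 because receptor subunits differ between layers. All 11 deep-layer markers were positive, with a median of 0.49 and unadjusted p-values under 0.05, a level reached by 6.82% of all genes. Of the 11, 5 passed the adjusted threshold, beside 0.513% of all genes. These were Ccn2, Nxph4, Foxp2, Hs3st4 and Tle4, at 2.10, 1.98, 0.73, 0.49 and 0.33 on the log2 scale in the authors' deposited table. Tbr1, with the highest mean count of the 11, was at 0.22 (SE 0.07, adjusted p = 0.170) in the authors' deposited table. Of 8 upper-layer markers 7 were negative, with a median of -0.24, and Otof and Rasgrf2 passed at -0.42 and -0.31 in the authors' deposited table. The pan-excitatory markers were split 3 to 3 in sign, and Camk2a alone passed, at -0.29 (SE 0.06, adjusted p = 0.00151) in the authors' deposited table. The part of layer sampling in the values of these 3 members was not tested. The vesicular glutamate transporter Slc17a7, which is not particular to cortex, averaged 34713 counts, so its level does not test the tissue label. The 3 markers of cerebellar granule cells listed, Neurod1, Cbln3 and Fat2, averaged 205, 11.6 and 1.54 in the authors' deposited table. The alpha subunit Gabra6, not analysed here, is known from those cells.

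**Figure D4:**
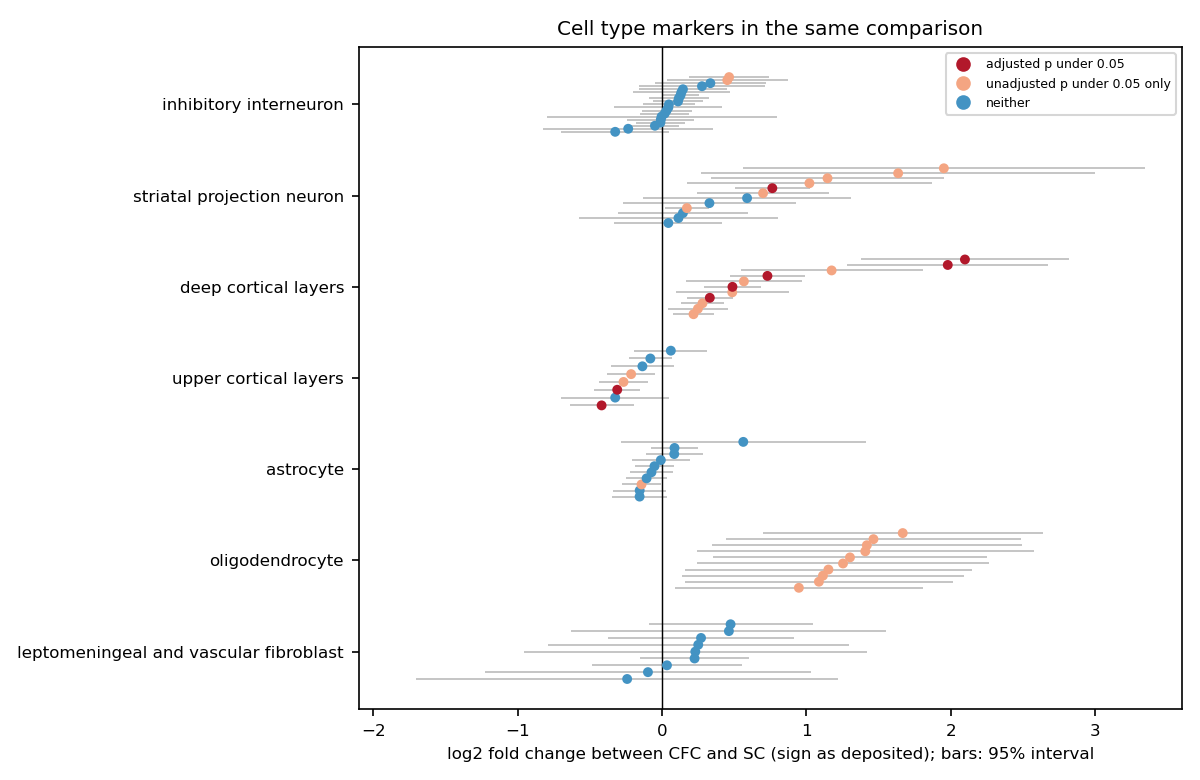
Log2 fold change (x axis, sign as deposited) of the marker genes of 7 cell types or layers (y axis), 1 point per gene with its 95% interval, coloured by whether the gene passed. All deep-layer, striatal and oligodendrocyte points lie above 0, while the interneuron and astrocyte points lie on both sides of it.

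The wider GABA pathway was read from 52 further genes in 5 lists, all found in the table. None of the 50 with an adjusted p-value was under 0.05 by the authors' DESeq2 test, and 4 had an unadjusted p-value under 0.05, or 7.69%, close to the 6.82% of all genes. In all, 26 were positive and 26 negative, with a median of 0.0011. None of the 14 genes of GABAA receptor assembly and trafficking was under an unadjusted 0.05, and 12 had intervals inside a 1.2-fold difference. Gabarapl1, a relative of the receptor-associated protein GABARAP and the most abundant of them per kb, was at -0.04 (SE 0.05) in the authors' deposited table.

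Among 10 organisers of inhibitory synapses, Mdga2, which binds neuroligins and limits their contact with neurexins, was the 1 gene under an unadjusted 0.05. It was positive at 0.21 (SE 0.08, adjusted p = 0.321) in the authors' deposited table. Insyn1, a component of the inhibitory postsynapse and the most abundant of these per kb, was at -0.09 (SE 0.06) in the authors' deposited table. The 8 partners and effector channels of GABAB receptors held none under an unadjusted 0.05, and their most abundant gene per kb, the potassium channel subunit Kcnj3, was at 0.01 (SE 0.08) in the authors' deposited table.

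The list of GABA and glutamine metabolism held the other 3 genes, all carriers of glutamine, the precursor from which neurons rebuild glutamate and GABA. Slc38a1, a carrier of neurons including interneurons, was positive at 0.19 (SE 0.06, adjusted p = 0.160) in the authors' deposited table. Slc38a2, its close relative, was also positive, at 0.19 (SE 0.07, adjusted p = 0.362), in the authors' deposited table. Slc38a3, which releases glutamine from astrocytes, was negative at -0.17 (SE 0.08, adjusted p = 0.474) in the authors' deposited table. The interval of Slc38a3, from -0.32 to -0.03, did not overlap those of Slc38a1, from 0.07 to 0.31, and Slc38a2, from 0.05 to 0.33, and the difference between the genes was not tested. Glul, the astrocytic glutamine synthetase and the most abundant of the list per kb, was at -0.08 (SE 0.06) in the authors' deposited table. Of 10 further chloride transporters and kinases none was under an unadjusted 0.05, and Wnk2, a kinase that acts on the chloride transporters and their most abundant gene per kb, was at -0.08 (SE 0.06) in the authors' deposited table.

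**Figure D5:**
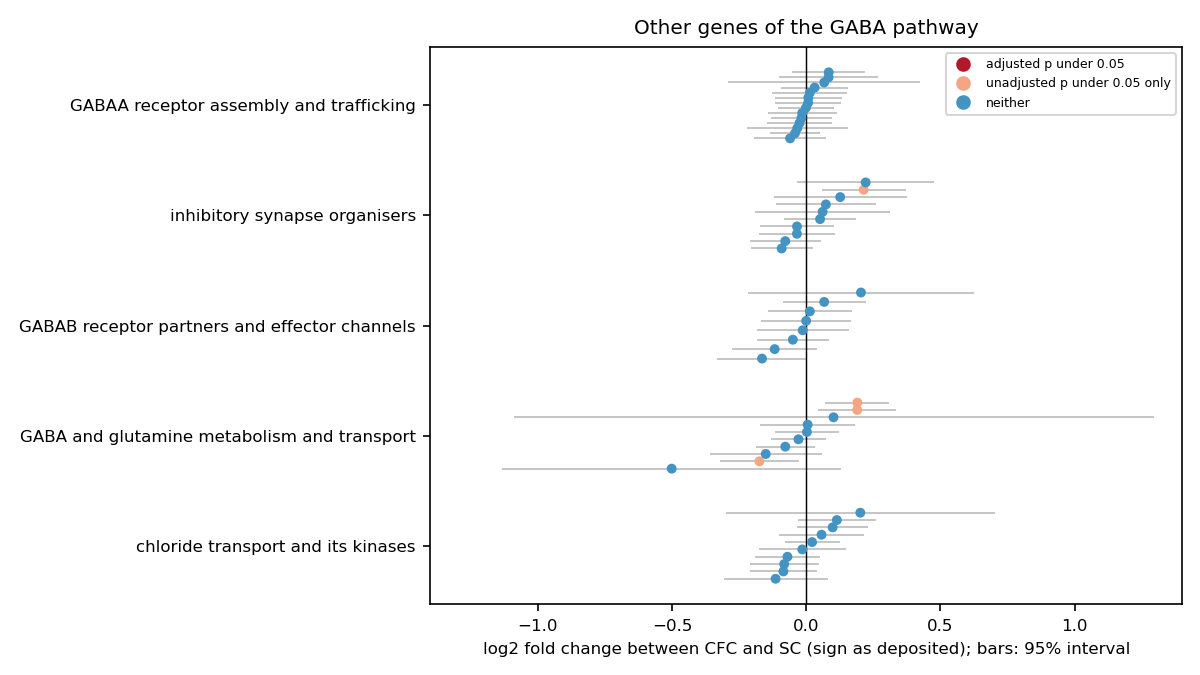
Log2 fold change (x axis, sign as deposited) of 52 further genes of the GABA pathway in 5 lists (y axis), 1 point per gene with its 95% interval. The 4 genes with an unadjusted p-value under 0.05, in a lighter colour, are Mdga2, Slc38a1, Slc38a2 and Slc38a3, and no point is in the colour of an adjusted p under 0.05.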

How the data were processed

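Polyadenylated RNA of 7 libraries was prepared with the KAPA mRNA HyperPrep kit from 100 ng of RNA, per the labels. The submitters' processing notes name Trimmomatic, Subread, DESeq2 and the build mm10, with no version or setting. Per the file headers, the authors deposited for each gene a mean normalized count (a signal averaged over libraries), a log2 fold change and its SE, a Wald score, and an unadjusted and an adjusted p-value. The depth of single libraries is unknown, and p-values measure the spread between these libraries, which may be technical, since the labels do not say whether each came from its own animal.

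The authors' adjusted p-values were used as the test. Computed from the table were 95% intervals (normal quantile 1.96), SE ratios against a running median over 301 genes of similar mean count, and counts per kb of exon in GENCODE M21 (GRCm38), which held 17726 of the 17732 IDs. Promoters are from RefSeq on GRCm38.p6. Computations used Python 3.11.15, pandas 2.3.3 and scipy 1.17.1, and the adjustment and intervals were tested on simulated data. Members, lists and tests were chosen with earlier results of these data known. Named are all members, pathway genes with an unadjusted p-value under 0.05, in each pathway list the gene highest per kb, in each marker list set beside a result the gene with the highest mean count, and markers under an adjusted 0.05. Prox1, Dlx2, Lamp5, Pvalb, Sst, Vip, Tac1, Gfap, Olig1, Ttr, Slc17a7, Cbln3 and Fat2 lie outside this rule and were chosen after their values were seen. Each of the 26 members was on 1 row.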

Additional observations from a re-analysis of the deposited data

How the results depend on the processing

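No paired analysis was possible because values of single libraries were not analysed here, and for the same reason no library could be left out and no other normalization tried. The count of 0 members held in 6 of 8 alternatives. Stricter ones were a Bonferroni adjustment, a null of at most 1.2-fold change and division of the Wald statistic by its robust SD (1.01). They called 21, 2 and 62 of all genes against 67, so a gene not under the authors' adjusted 0.05 could hardly pass there. The others were no filter on the mean count, a mean count of at least 100 and regression on length, GC content and mean count. An adjusted threshold of 0.1 gave 1 member, Gabrd, and an unadjusted 0.05 gave 4. Of the other pathway genes, 0 passed in 7 alternatives, with the same limit on the stricter ones, and 4 at an unadjusted 0.05. Members within a 1.2-fold difference numbered 17, and 12 with a 99% interval. At a limit of 1.5-fold there were 21. The median log2 fold change of -0.01 ran from -0.0148 to -0.0098 under 3 alternatives. Among 30 named genes, adjusted p-values kept their side and sign in 209 of 210 settings, the exception being Gabrd at the threshold of 0.1 (0.0901). Only the regression could turn a sign, since the other settings kept that of the deposited Wald statistic. The stricter settings could hardly move any of these genes across the threshold. Taking length from the longest transcript, an alternative chosen after seeing the data, turned the ratio of Gad2 to Gad1 from 1.10 to 0.532 and raised that of Gabrb2 to Gabrb1 from 1.5 to 2.38, while no member's rank of level moved by more than 3. Mean counts under 30 limit what can be said of Gabre, Gabrq, Gabrr1, Gabrr2 and Slc6a13.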
